A study of Mus musculus with 6 samples.

Results

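The genes described here are 9 genes known from dendritic cells, measured by bulk RNA-seq in tumor-associated macrophages (TAMs) of a mouse melanoma: *Flt3*, *Zbtb46*, *Dpp4*, *Xcr1*, *Batf3*, *Ccr7*, *Fscn1*, *Ccl22* and *Ccl17*. They were taken by name from the count tables of all 6 libraries, and all 9 of the 9 were found, among 23424 genes. All 9 had at least 10 counts in total and were among the 14645 protein-coding genes tested. YUMM1.7 melanoma cells, a line derived from a genetically engineered mouse melanoma, had been injected into the skin of wild-type female C57Bl/6J mice that were 8 weeks old at tumor induction and received no treatment. On day 21 the tumors were pooled within each of 3 independent experiments, and live, lineage-negative cells positive for CD45, CD11b and F4/80 were sorted into an F4/80high and an F4/80low subset, which gave 3 libraries per subset. F4/80 itself is the product of *Adgre1*. The description of the sort names no marker specific to dendritic cells, but the markers of its lineage gate are not given. Each library holds cells of pooled tumors and of every cell type inside the gate. The question of the comparison is whether the dendritic cell genes differ between the subsets, replicate pair by replicate pair, and whether they vary together over the 6 libraries.

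Conventional dendritic cells take up antigen in tissues, carry it to lymph nodes and present it to T cells. They arise from precursors that depend on FLT3, the receptor for FLT3 ligand, and they carry the transcription factor ZBTB46, which sets them apart from most macrophages. Type 1 cells depend on BATF3 together with IRF8 and bear XCR1, the receptor for XCL1. Type 2 cells rely more on IRF4. When dendritic cells mature they gain CCR7, which guides them along CCL19 and CCL21 to the lymph node, and fascin, the actin-bundling protein encoded by *Fscn1* that supports their long protrusions. Mature dendritic cells are also a rich source of CCL17 and CCL22, which attract cells that bear CCR4, regulatory T cells among them. None of these genes is limited to dendritic cells: macrophages and monocytes can make CCL17 and CCL22, T and B cells use CCR7, and T cells carry DPP4 (CD26).

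Depth differed between experiments. For F4/80high the tables held 30292061 counts in replicate 1, 43604373 in replicate 2 and 16045281 in replicate 3. For F4/80low they held 32967733, 32560608 and 16204810 counts in the same order. Replicates 1 and 2 are marked as batch 1 and replicate 3 as batch 2 in the study's material, without a statement of what the batch was. The 2 libraries of batch 2 stood apart in depth and in makeup: the share of counts in protein-coding genes was 89.3% and 89.9% in these, and between 97.2% and 97.9% in the libraries of batch 1. Values below are CPM, counts scaled to a common library size with trimmed-mean (TMM) factors over the tested genes, and a log2 fold change above 0 means higher in F4/80high.

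The libraries were first checked against their label. *Lyz2*, the lysozyme gene of macrophages and other myeloid cells, averaged 6416 CPM and was the most abundant of the macrophage markers. *Adgre1* was at 273, 539 and 360 CPM in F4/80high and at 243, 327 and 183 CPM in F4/80low replicates 1 to 3, higher in F4/80high in each pair (log2 fold change 0.67, edgeR adjusted p = 0.664). Per kilobase of gene length, which allows levels of different genes to be compared, *Adgre1* averaged 98.9 CPM and *Csf1r*, the receptor for the macrophage growth factor CSF1, 165 CPM. On the same scale *Ccr7* averaged 67.8 CPM, *Fscn1* 18.6 CPM, *Ccl22* 15.1 CPM, *Xcr1* 4.48 CPM, *Ccl17* 4.47 CPM, *Dpp4* 4.03 CPM, *Batf3* 3.66 CPM, *Flt3* 1.89 CPM and *Zbtb46* 1.15 CPM per kilobase. *Ccr7*, *Fscn1* and *Ccl22* averaged above the rest and *Flt3* and *Zbtb46* were at the bottom, but any 2 neighbours in this order overlapped in their ranges over the 6 libraries. *Clec9a*, a defining receptor of type 1 dendritic cells, was between 0 and 3.96 CPM in every library.

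Of the 9 dendritic cell genes, 8 were higher in F4/80low than in F4/80high in each of the 3 replicate pairs, all but *Batf3*, and 6 were when scaled by library size alone, without *Xcr1* and *Ccl17*. Of all tested genes, 15.9% were higher in F4/80low in 3 of 3 pairs, and 16% were higher in F4/80high in 3 of 3. The median log2 fold change over the 9 genes was -0.91 in the fit and -0.81, -1.06 and -0.67 in pairs 1, 2 and 3, beside a median of 0.0091 over all tested genes in the fit. A gene was called when its log2 fold change was beyond 1 in either direction and its adjusted p below 0.05. The edgeR fit with batch called none of the 9 and none of all genes (0%), while 1113 genes had an unadjusted p under 0.05. In bulk samples, fewer cells of a type and less RNA per cell cannot be told apart, and this holds for every difference below.

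**Figure D1:**
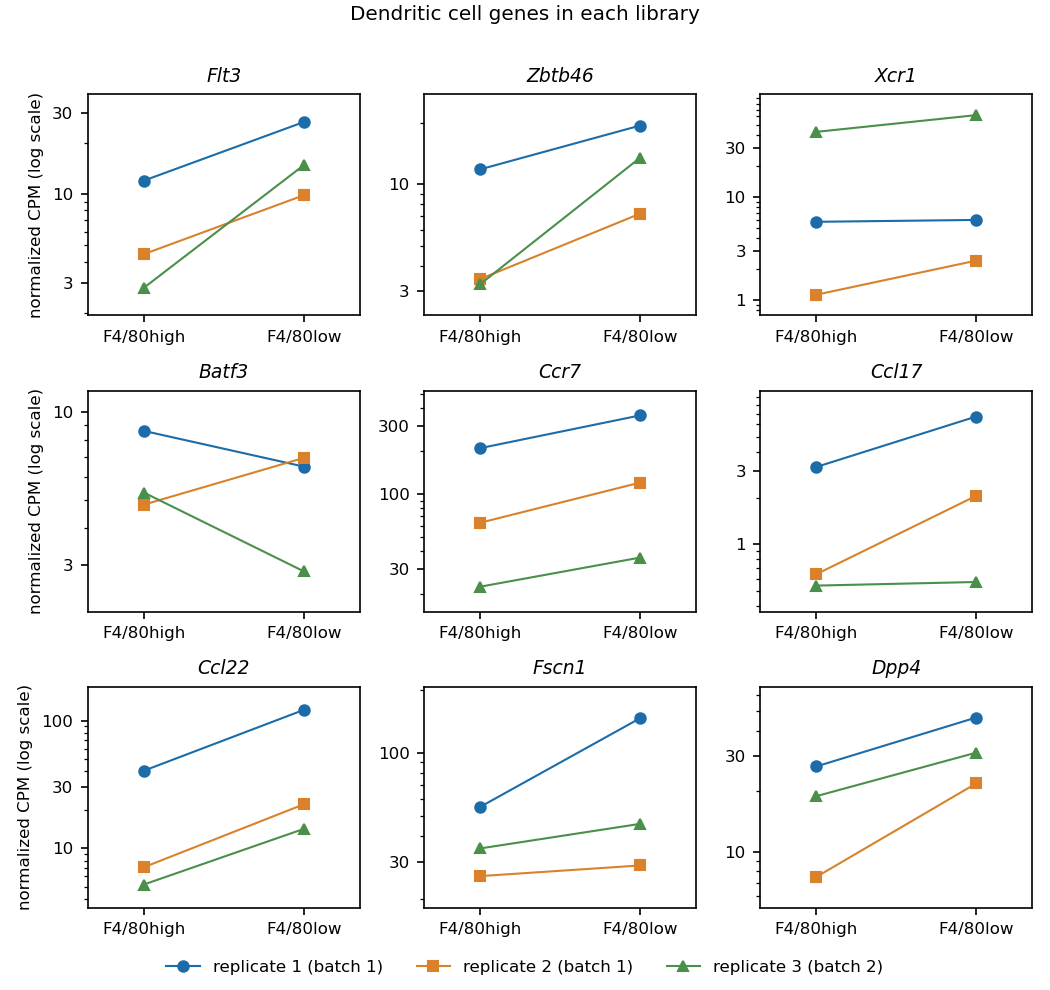
Normalized CPM on a log scale (y axis) of each dendritic cell gene in the F4/80high and F4/80low library of replicates 1, 2 and 3 (color and symbol), with a line joining the libraries of 1 replicate. The lines go up to F4/80low in each pair for every gene but *Batf3* (with library size alone also not for *Xcr1* and *Ccl17*), while the distance between replicates is often larger than the step between subsets.

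*Flt3* (ENSMUSG00000042817, chr5:147330741-147400489, minus strand), the receptor that dendritic cell precursors need, was at 12.0, 4.43 and 2.81 CPM in F4/80high and at 26.4, 9.81 and 14.7 CPM in F4/80low. Each F4/80low library was above its partner, by 2.21, 2.21 and 5.24 times, but F4/80high replicate 1 was above F4/80low replicate 2, so the subsets overlapped. The fitted log2 fold change was -1.52 ± 0.53 (SE, n = 3 per subset), with an unadjusted p of 0.0191 and an adjusted p of 0.554 in edgeR. Of the 9 genes only *Flt3* had an unadjusted p under 0.05 in this fit, a level that 4.32% of all genes reached with a higher value in F4/80low. The lowest value, in F4/80high replicate 3, rested on 26 counts.

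*Zbtb46* (ENSMUSG00000027583, chr2:181387762-181459426, minus strand), the transcription factor of conventional dendritic cells, followed *Flt3* closely. Its levels were 11.8, 3.44 and 3.24 CPM in F4/80high and 19.4, 7.18 and 13.5 CPM in F4/80low. F4/80low was above F4/80high by 1.64, 2.09 and 4.15 times in the 3 pairs, again with overlap between the subsets (log2 fold change -1.18 ± 0.58, edgeR adjusted p = 0.687). For both genes the step between the subsets was widest in replicate 3. Without replicate 3 of both subsets the log2 fold change was -1.14 for *Flt3* and -0.80 for *Zbtb46*.

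*Dpp4* (ENSMUSG00000035000, chr2:62330073-62412231, minus strand), the surface peptidase CD26 found on conventional dendritic cells and T cells, was at 26.6, 7.50 and 18.9 CPM in F4/80high and at 46.6, 21.9 and 31.1 CPM in F4/80low. F4/80low was higher by 1.75, 2.92 and 1.65 times in the 3 pairs. The log2 fold change was -0.91 ± 0.47 with an edgeR adjusted p of 0.695, and the libraries overlapped.

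*Xcr1* (ENSMUSG00000060509, chr9:123852315-123862029, minus strand), the chemokine receptor of type 1 dendritic cells, separated the experiments rather than the subsets. It was at 5.73, 1.13 and 42.6 CPM in F4/80high and at 5.97, 2.41 and 61.8 CPM in F4/80low. Both replicate 3 libraries were far above the other 4, and the highest library was 54.9 times the lowest. Within pairs F4/80low exceeded F4/80high by 1.04, 2.14 and 1.45 times. The log2 fold change between subsets was -0.38 ± 0.55 (edgeR adjusted p = 0.899), whereas that of batch 2 over batch 1 was 3.76 (adjusted p = 0.000773).

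*Batf3* (ENSMUSG00000026630, chr1:191097847-191108945, plus strand), the transcription factor that type 1 dendritic cells require, went its own way. It was at 8.61, 4.82 and 5.30 CPM in F4/80high and at 6.50, 6.96 and 2.85 CPM in F4/80low. F4/80high was the higher library in pairs 1 and 3 and the lower in pair 2. The log2 fold change was 0.27 ± 0.44 (edgeR adjusted p = 0.913), and it was -0.0021 without replicate 3 of both subsets. *Batf3* also had the narrowest span of the 9, with the highest library 3.02 times the lowest.

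*Ccr7* (ENSMUSG00000037944, chr11:99144196-99155077, minus strand), the lymph node homing receptor, had the highest mean level per kilobase of the 9, although in F4/80high replicate 3 *Fscn1* was slightly above it (11.6 against 11.4 CPM per kilobase). It was at 209, 63.1 and 22.6 CPM in F4/80high and at 354, 120 and 36.1 CPM in F4/80low. The step from F4/80high to F4/80low was alike in the 3 pairs, 1.69, 1.91 and 1.60 times, although the level differed so much between experiments that the subsets overlapped. The log2 fold change between subsets was -0.76 ± 0.48 (edgeR adjusted p = 0.719) and that of batch 2 over batch 1 was -2.65 (adjusted p = 0.00567).

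*Fscn1* (ENSMUSG00000029581, chr5:142960343-142973185, plus strand), encoding fascin, was at 55.0, 25.6 and 34.8 CPM in F4/80high and at 146, 28.8 and 45.6 CPM in F4/80low. Its difference was widest in replicate 1, where F4/80low was 2.66 times F4/80high, against 1.12 and 1.31 times in replicates 2 and 3. The log2 fold change was -0.88 ± 0.54 (edgeR adjusted p = 0.714), and without F4/80low replicate 1 it was 0.11.

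*Ccl22* (ENSMUSG00000031779, chr8:94745590-94751699, plus strand), a ligand of CCR4, had the steadiest difference over the replicate pairs. It was at 40.5, 7.09 and 5.19 CPM in F4/80high and at 121, 22.1 and 14.1 CPM in F4/80low. F4/80low was above F4/80high by 2.99, 3.11 and 2.73 times, while the level in replicate 1 was above that in replicates 2 and 3 in both subsets. The subsets overlapped, since F4/80high replicate 1 lay above F4/80low replicates 2 and 3. In the fit with batch the log2 fold change was -1.55 ± 0.70 (edgeR adjusted p = 0.677). With the replicate number as a block, which pairs the libraries, *Ccl22* was called (edgeR adjusted p = 0.0348).

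*Ccl17* (ENSMUSG00000031780, chr8:94810453-94812036, plus strand), the other ligand of CCR4, had the lowest mean CPM of the 9. It was at 3.18, 0.641 and 0.541 CPM in F4/80high and at 6.75, 2.07 and 0.570 CPM in F4/80low. The first 2 pairs differed by 2.12 and 3.22 times. In replicate 3 each subset had 5 counts, with exact (Clopper-Pearson) 95% intervals of 0.176 to 1.26 CPM in F4/80high and 0.185 to 1.33 CPM in F4/80low, so no difference was detectable at this depth. These intervals cover counting error only. The log2 fold change was -0.92 ± 0.84 (edgeR adjusted p = 0.806).

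**Figure D2:**
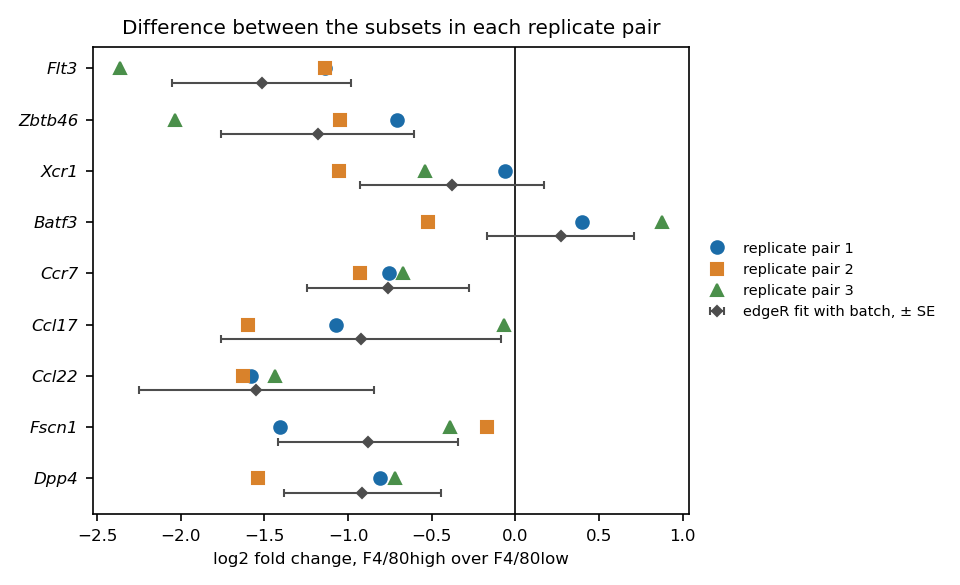
Log2 fold change of F4/80high over F4/80low (x axis) for each dendritic cell gene (y axis), by replicate pair on log2 CPM with a prior count of 2 (colored symbols), and the edgeR estimate with batch as a gray diamond with its SE. *Ccl22* has pairs that lie close together, from -1.63 to -1.44, *Batf3* has pairs on both sides of 0, and *Flt3* and *Zbtb46* are lowest in replicate 3.

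Since same-numbered libraries came from the same experiment, the comparison was also fitted with the replicate number as a block. With the replicate block, edgeR called *Ccl22* (log2 fold change -1.56 ± 0.24, adjusted p = 0.0348), where 0.287% of all genes were called higher in F4/80low. In that fit 6 of the 9 had an unadjusted p under 0.05, all but *Xcr1*, *Batf3* and *Ccl17*, against 5.95% of all genes with a higher value in F4/80low. Of the genes that were not called, the adjusted p was 0.142 for *Ccr7*, 0.150 for *Flt3*, 0.193 for *Dpp4* and 0.296 for *Zbtb46*. DESeq2 with the same block, an alternative chosen after seeing the data, called *Flt3* (adjusted p = 0.0150), *Ccl22* (adjusted p = 7.36e-06) and *Dpp4* (adjusted p = 0.0348), where 1.52% of all genes were called higher in F4/80low. *Ccr7* had a DESeq2 adjusted p of 0.0187 with the block, with a log2 fold change of -0.79, inside the fold threshold. The p-values of the blocked fits measure the spread of the subset difference over the 3 experiments on pooled tumors. Those of the fit with batch also take in the difference in level between replicates 1 and 2. An exact test of a single gene over 3 against 3 libraries could not go below p = 0.1, and one over 3 pairs not below p = 0.25.

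In none of the 9 genes were the libraries of the subsets fully apart, while 2.9% of all genes had every F4/80low library above every F4/80high library. In 8 of the 9 genes the replicate terms of the blocked fit had an adjusted p under 0.05, *Batf3* being the exception (adjusted p = 0.457), where 38.5% of all genes did. The batch term alone had an adjusted p under 0.05 for *Xcr1* and *Ccr7*, 2 of the 9, against 42.6% of all genes, and in opposite directions. F4/80low replicate 1 was the highest library for 7 of the 9 genes, against 13.8% of all genes, the others being *Xcr1* and *Batf3*. Replicate 1 exceeded replicate 2 in both subsets for 8 of the 9 genes, against 27.8% of all genes. F4/80high replicate 1 was above F4/80low replicate 2 in all 9, against 49% of all genes.

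The fit with batch does not pair the libraries, and its subset difference moved most when 1 library of replicate 1 was left out without its partner. Without F4/80low replicate 1 the median log2 fold change of the 9 genes was -0.18, and without F4/80high replicate 1 it was -1.55. With replicate 1 left out of both subsets it was -0.96, near the -0.91 with all 6 libraries. Without F4/80high replicate 2 it was -0.54.

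Whether the genes varied together was described by centring the log2 CPM of each gene over the 6 libraries and taking the mean absolute difference between the profiles of 2 genes, where 0 means the same shape. The 6 libraries are 3 pairs in 2 batches, so no correlation coefficient is given. The closest pair of genes was *Flt3* and *Zbtb46*, at 0.22 log2 units, followed by *Ccr7* and *Ccl17* at 0.27, *Zbtb46* and *Dpp4* at 0.39, and *Ccl17* and *Ccl22* at 0.42. The lineage genes *Flt3*, *Zbtb46* and *Dpp4* were thus near each other, as were the maturation genes *Ccr7*, *Ccl17* and *Ccl22*, while *Flt3* and *Ccr7* were 0.75 apart and *Ccr7* and *Dpp4* 1.16. *Fscn1*, although a maturation gene, was nearer to *Dpp4* at 0.44 than to *Ccr7* at 0.94. *Xcr1* was apart from all others, with a median of 2.11 over its 8 pairs against 0.75 over the 28 pairs without it.

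**Figure D3:**
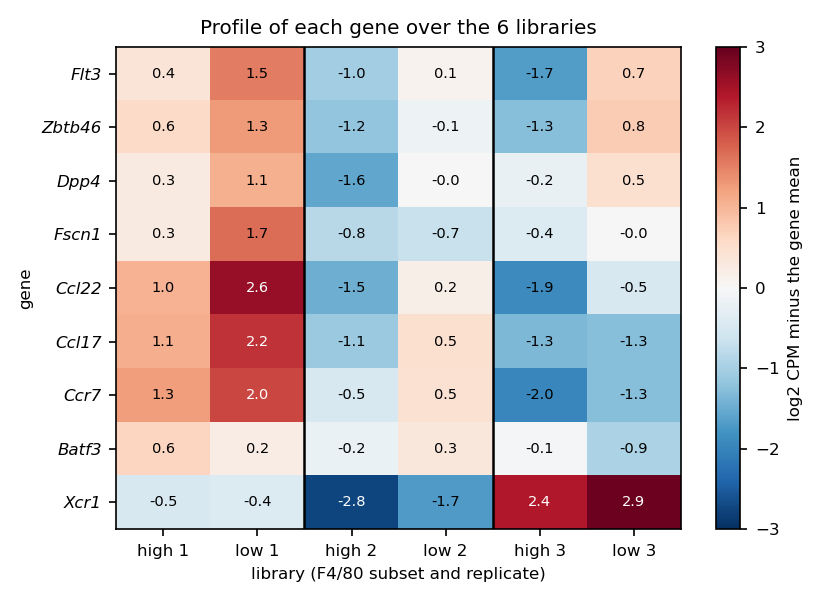
Centred log2 CPM (color and number) of the 9 dendritic cell genes (rows) in the 6 libraries (columns, ordered by replicate with black lines between replicates). *Ccr7*, *Ccl17* and *Ccl22* have high values in replicate 1 and low values in replicate 3, *Flt3* and *Zbtb46* have a low F4/80high replicate 3 and a raised F4/80low replicate 3, and *Xcr1* is highest in both replicate 3 libraries.

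*Ccr7* and *Flt3* parted most in F4/80low replicate 3. *Ccr7* was 54.6, 44.5 and 25.1 times *Flt3* per kilobase in F4/80high replicates 1, 2 and 3 and 41.8, 38.3 and 7.65 times in F4/80low. *Ccr7* was 82.1 to 133 times *Xcr1* per kilobase in the 4 libraries of replicates 1 and 2, and 1.19 and 1.31 times in the 2 of replicate 3. *Zbtb46* stayed between 0.531 and 0.838 times *Flt3* in the 6 libraries. With batch means removed, the median distance over all 36 gene pairs went from 0.84 to 0.41, and that of *Xcr1* to the others from 2.11 to 0.39. Without replicate 3 of both subsets it was 0.39 over all pairs and 0.37 for those of *Xcr1*. *Xcr1* was thus no farther from the other genes within batches than they were from each other. Batch 2 and the third experiment cannot be told apart.

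Genes with like profiles were sought among 10986 protein-coding genes whose mean log2 CPM reached 1. Nearest to *Flt3* were *Mreg* (0.20), *Cd101* (0.21), *Zbtb46* (0.22), *Klri1* (0.24) and *Net1* (0.26). Near to *Ccr7* were *Id1* (0.27), *Dusp5* (0.27), *Ctsk* (0.27) and *Hsd11b1* (0.31), and *Ccl17* was below that level. For *Xcr1*, listed after its values were seen, the nearest were *A530032D15Rik* (0.26), *Osmr* (0.26), *Pygm* (0.27), *Slfn4* (0.28) and *Adgrl3* (0.30), none of them a dendritic cell gene on the lists used here. *Slfn4* was between 108 and 466 CPM in the libraries of batch 1 and at 2723 and 4351 CPM in those of batch 2.

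*Ccl22* and *Ccl17* are neighbours on chromosome 8, 58753 bases apart, with *Cx3cl1* between them. *Cx3cl1*, encoding fractalkine, was at 24.9, 13.1 and 10.8 CPM in F4/80high and at 25.0, 21.8 and 19.97 CPM in F4/80low, with a log2 fold change of -0.49 (edgeR adjusted p = 0.733). It was higher in F4/80low in 3 of 3 pairs, but in 2 of 3 with library size alone, replicate 1 being nearly level. The 8 other protein-coding genes within 100 kb showed no common direction: *Coq9* (0.39) and *Ciapin1* (0.09) were higher in F4/80high in 3 of 3 pairs (*Ciapin1* in 2 of 3 with library size alone), and *Rspry1* (0.17), *Arl2bp* (0.02), *Pllp* (-0.61), *Polr2c* (-0.20), *Dok4* (-0.35) and *Ccdc102a* (-0.20) were mixed. With library size alone *Dok4* was higher in F4/80low in 3 of 3 pairs. The promoters of both chemokine genes are shown because the genes lie close together with similar profiles, and that of *Zbtb46* because it held a motif. They are RefSeq sequences of GRCm38.p6, from 250 bases before to 50 after the annotated start, on the strand of the gene. Their places are chr8:94745434-94745733 (plus) for *Ccl22*, chr8:94810203-94810502 (plus) for *Ccl17* and chr2:181424339-181424638 (minus) for *Zbtb46*. The RefSeq start used for *Zbtb46* lies inside the gene body that GENCODE gives, not at its 5′ end. Capitals mark a match to the AP-1 motif, the kind of site that BATF and JUN proteins bind.
Ccl22: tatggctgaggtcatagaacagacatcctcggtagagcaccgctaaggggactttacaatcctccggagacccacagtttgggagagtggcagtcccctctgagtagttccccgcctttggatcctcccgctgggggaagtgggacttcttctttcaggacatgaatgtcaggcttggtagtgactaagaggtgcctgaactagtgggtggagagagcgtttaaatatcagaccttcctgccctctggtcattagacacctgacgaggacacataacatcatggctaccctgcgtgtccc
Ccl17: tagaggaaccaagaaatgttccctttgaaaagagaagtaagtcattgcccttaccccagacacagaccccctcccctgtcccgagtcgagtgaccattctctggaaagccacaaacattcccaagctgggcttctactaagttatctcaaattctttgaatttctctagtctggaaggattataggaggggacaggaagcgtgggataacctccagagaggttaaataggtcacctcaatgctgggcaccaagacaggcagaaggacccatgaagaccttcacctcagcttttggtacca
Zbtb46: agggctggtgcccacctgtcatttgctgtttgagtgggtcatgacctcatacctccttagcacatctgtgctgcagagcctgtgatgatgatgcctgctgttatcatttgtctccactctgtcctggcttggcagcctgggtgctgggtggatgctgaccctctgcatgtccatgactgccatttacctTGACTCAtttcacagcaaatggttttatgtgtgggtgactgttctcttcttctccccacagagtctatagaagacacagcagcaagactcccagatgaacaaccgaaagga

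Promoters were found for 8 of the 9 genes, all but *Ccr7*. The AP-1 letters TGANTCA, on either strand, occurred in that of *Zbtb46* alone, at this internal start, beginning 61 bases before the start, and in 7.81% of all 32851 promoters. The NF-kB motif, on either strand, occurred in none of the 8 and in 8.46% of all promoters. These are matches of letters in a short window and say nothing of whether a factor binds there.

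Ligands, receptors and transcription factors that act with the 9 genes were read from a list of 14, of which 12 were in the tables and *Ccl19* and *Ccl21a* were not analysed here. None was called, 3 were higher in F4/80low in 3 of 3 pairs and 3 in F4/80high, and the median log2 fold change was 0.04. With library size alone these counts were 3 and 2. *Flt3l*, the ligand of FLT3, was at 14.9, 8.22 and 7.89 CPM in F4/80high and 9.79, 9.88 and 6.16 CPM in F4/80low (log2 fold change 0.27). *Xcl1*, the ligand of XCR1 made by NK and T cells, was at 72.9, 8.57 and 3.78 CPM in F4/80high and 20.8, 14.5 and 1.71 CPM in F4/80low. In both subsets *Xcl1* was highest in replicate 1 and lowest in replicate 3, where *Xcr1* was highest. *Ccr4*, the receptor of both chemokines, was at most 2.40 CPM.

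Among the transcription factors, *Irf8*, the partner of BATF3, had a log2 fold change of 0.29 and was at 198 to 411 CPM. *Id2*, which dendritic cell development requires, was at 611, 494 and 1159 CPM in F4/80high and 447, 434 and 948 CPM in F4/80low, higher in F4/80high in 3 of 3 pairs (log2 fold change 0.31, edgeR adjusted p = 0.737). *Nfil3*, which acts before type 1 dendritic cells commit, was at 246, 198 and 129 CPM in F4/80high and 466, 269 and 224 CPM in F4/80low, higher in F4/80low in 3 of 3 (log2 fold change -0.75, edgeR adjusted p = 0.539). *Irf4* (-0.15) and *Junb* (-0.49), a JUN protein that pairs with BATF proteins, were also higher in F4/80low in 3 of 3 pairs. *Batf2* (0.26) was higher in F4/80high in 3 of 3 pairs, but in 2 of 3 with library size alone. *Batf* (-0.03), *Zeb2* (-0.09) and *Jun* (0.10) had pairs in both directions.

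Broader dendritic cell lists gave a mixed account of the cell types. Beside the pair counts of each list below, 15.9% of all genes were higher in F4/80low in 3 of 3 pairs and 16% in F4/80high. Of 20 genes shared by conventional dendritic cells, *Flt3*, *Zbtb46* and *Dpp4* included, 14 were higher in F4/80low in 3 of 3 pairs and 0 in F4/80high (13 and 0 with library size alone), with a median log2 fold change of -0.62. The smallest p-values were those of *Cd24a* (-1.52, edgeR adjusted p = 0.440), which granulocytes also carry, *Adam19* (-0.94, adjusted p = 0.524) and *Flt3*, and *Gpr171* (0.05) alone had a positive value. DESeq2 called *Cd24a* with batch (-1.52, adjusted p = 0.00202) and with the block (-1.58, adjusted p = 6.88e-06). With batch it called 103 of the 14645 tested genes higher in F4/80low. With the block it also called *Kit* (-2.42, adjusted p = 5.09e-07), besides *Flt3* and *Dpp4*, where 1.52% of all genes were called higher in F4/80low. *Kit* was at 12.7, 0.330 and 91.3 CPM in F4/80high and 29.3, 6.98 and 384 CPM in F4/80low. *Hdc*, the most abundant mast cell and basophil marker, was likewise lowest in F4/80high replicate 2 (31.8 CPM) and highest in F4/80low replicate 3 (467 CPM). The part of mast cells in *Kit* was not tested. *Itgax*, encoding CD11c, was at 91.1, 67.5 and 737 CPM in F4/80high and 149, 119 and 935 CPM in F4/80low, a batch difference as in *Xcr1* (log2 fold change of batch 2 over batch 1 3.02, adjusted p = 2.06e-05).

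Of 18 type 1 dendritic cell markers, 5 were higher in F4/80low and 4 in F4/80high in 3 of 3 pairs (3 and 4 with library size alone), with a median log2 fold change of -0.15. With TMM factors these shares were 15.9% and 16% over all genes. *Wdfy4* (-0.65), needed for cross-presentation, *Sept3* (-2.04) and *Ifi205* (-0.87) were on the F4/80low side, while *Cadm1* (1.88, edgeR adjusted p = 0.440), *Rab7b* (0.73) and *Cd8a* (0.89) had positive log2 fold changes. DESeq2 called *Cadm1* with batch (1.89, adjusted p = 0.00781) and with the block (1.92, adjusted p = 5.55e-06). These fits called 45 and 131 of the 14645 tested genes higher in F4/80high. With the block DESeq2 also called *Sept3* (-2.29, adjusted p = 0.0362) and *Ifi205* (-1.07, adjusted p = 0.0299) higher in F4/80low, where 1.52% of all genes were. *Cadm1* was at 29.6, 45.7 and 475 CPM in F4/80high and 10.8, 21.5 and 48.9 CPM in F4/80low, higher in F4/80high in 3 of 3 pairs, the opposite side from *Xcr1*. The batch term had an adjusted p under 0.05 for 9 of the 18, beside 42.6% of all genes, so this share was near that of all genes. Of these 9, 6 (*Xcr1*, *Cadm1*, *Ifi205*, *Cd36*, *Id2* and *Tlr3*) were higher in replicate 3, the library pair of batch 2, and 3 (*Gcsam*, *Cd8a* and *Naaa*) were lower. *Clec9a*, at 0.865 and 0.456 CPM in replicate 3, and *Batf3* were not among them.

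Of 16 type 2 markers, 5 were higher in F4/80low in 3 of 3 pairs and 0 in F4/80high (5 and 0 with library size alone), with a median log2 fold change of -0.05. *Cd209a*, a lectin of monocyte-derived and type 2 dendritic cells, was at 20.6, 1.79 and 1.41 CPM in F4/80high and 68.9, 13.5 and 5.25 CPM in F4/80low, close in shape to *Ccl22*. Its log2 fold change was -1.89 in the fit with batch and -2.21 ± 0.34 with the replicate block, where it was called (edgeR adjusted p = 0.0363). The blocked fit called 0.287% of all genes higher in F4/80low. *Notch2*, a receptor that type 2 cells need, had a log2 fold change of -0.90 (edgeR adjusted p = 0.504), and *Clec4a4* one of -1.43 at no more than 2.70 CPM. *Tbx21* (0.70), *Sirpa* (0.22) and *Klf4* (0.15) had the smallest p on the F4/80high side.

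Of 28 markers of mature, migratory dendritic cells, *Ccr7*, *Fscn1*, *Ccl17* and *Ccl22* included, 14 were higher in F4/80low and 1 in F4/80high in 3 of 3 pairs (11 and 1 with library size alone), with a median log2 fold change of -0.48. F4/80low replicate 1 was the highest library for 17 of the 28, against 13.8% of all genes. *Birc3*, an inhibitor of apoptosis, was at 151, 77.9 and 238 CPM in F4/80high and 224, 166 and 519 CPM in F4/80low (log2 fold change -0.89, edgeR adjusted p = 0.524). *Ebi3* (-0.90) was the next by p on that side after *Ccl22*, and *Cd86* (0.43), *Anxa3* (0.67) and *Cd83* (0.35) were the first by p on the F4/80high side. With the block, edgeR called *Ccl22* alone of the 28, where 0.287% of all genes were called higher in F4/80low. DESeq2 with the block also called *Cacnb3* (-1.35, adjusted p = 0.00146), where 1.52% of all genes were called higher in F4/80low.

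Of 14 plasmacytoid dendritic cell markers, 0 were higher in F4/80low and 2 in F4/80high in 3 of 3 pairs, with a median log2 fold change of 0.07. Over all genes these shares were 15.9% and 16%, so that of F4/80high was near the share of all genes. *Siglech*, which marks these cells, was between 1.22 and 16.6 CPM, and *Irf7* was the most abundant at 361 CPM on average. *Ccr9* (1.03), *Lair1* (0.56) and *Ptprcap* (0.73) had the smallest p on the F4/80high side, and *Spib* (-0.76), *Irf7* (-0.43) and *Runx2* (-0.08) on the other. Of 8 Langerhans cell markers, 6 were higher in F4/80low and 1 in F4/80high, with a median log2 fold change of -0.98. *Cd207*, the defining lectin langerin, was at most 1.19 CPM, and was the 1 gene on the F4/80high side. *Mfge8* had a log2 fold change of -0.61 (edgeR adjusted p = 0.623).

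Markers of several other cell types shared the direction of the dendritic cell genes between the subsets, but not all shared their variation over the libraries. All 10 neutrophil markers were higher in F4/80low in 3 of 3 pairs, also with library size alone, with a median log2 fold change of -1.28. With the block, edgeR called 6 of the 10 higher in F4/80low, where 0.287% of all genes were. The summed level of the neutrophil markers was 2147, 934 and 753 CPM in F4/80high and 4908, 3137 and 1535 CPM in F4/80low, highest in F4/80low replicate 1, as for the dendritic cell genes. *Retnlg*, the most abundant, averaged 630 CPM, and *Ly6g*, the defining surface marker, was between 1.19 and 8.89 CPM. In profile, 6 of the 10 neutrophil markers (60%) lay within 0.5 log2 units of *Ccr7*, against 0.938% of the 10986 genes and 1 of 23 other mature dendritic cell markers (4.35%). So did 2 of 12 type 2 markers (16.7%), 1 of 7 of the other dendritic cell genes (14.3%), 2 of 19 shared dendritic cell genes (10.5%) and 0 of 15 type 1 markers. *Ccl17*, at 0.27 from *Ccr7*, was below the level needed for this count and is not in these shares. Within 0.5 of *Flt3* lay 3 of the 10 neutrophil markers (30%), beside 2 of 7 of the other dendritic cell genes (28.6%), 3 of 18 shared dendritic cell genes (16.7%) and 1.04% of all genes.

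Of 10 eosinophil markers, 8 were higher in F4/80low in 3 of 3 pairs (7 with library size alone), with a median log2 fold change of -1.58. Their sum was 533, 269 and 179 CPM in F4/80high and 1114, 1520 and 406 CPM in F4/80low, highest in F4/80low replicate 2, and *Alox15* led with 390 CPM on average. Of 10 mast cell and basophil markers, 6 were higher in F4/80low in 3 of 3 pairs (5 with library size alone), with *Hdc* most abundant at 223 CPM. Of 10 monocyte markers, 6 were higher in F4/80low and 1 in F4/80high, with a median log2 fold change of -0.80. *Fn1* was most abundant at 1268 CPM on average. The monocyte markers summed to 3086, 5497 and 5588 CPM in F4/80high and 5112, 4265 and 9816 CPM in F4/80low, highest in F4/80low replicate 3. Their median profile distance was 1.52 from *Ccr7* and 1.33 from *Flt3*, against 1.21 and 1.03 over all genes compared. With the block, edgeR called 3 monocyte markers higher in F4/80low and 1 higher in F4/80high, where 0.287% and 0.232% of all genes were. Of 14 macrophage markers, 7 were higher in F4/80high and 0 in F4/80low (8 and 0 with library size alone). With the block edgeR called 5 macrophage markers higher in F4/80high, where 0.232% of all genes were.

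Lymphocyte markers, relevant because T and B cells use *Ccr7* and T cells *Dpp4*, did not share the direction. Of 15 tested T and NK cell markers none had 1 direction in all pairs, and the sum of all 18 was 2115, 606 and 517 CPM in F4/80high and 797, 945 and 233 CPM in F4/80low, highest in F4/80high replicate 1, while *Ccr7* was highest in F4/80low replicate 1. *Nkg7* led with 132 CPM on average. The 11 B and plasma cell markers summed to 407, 193 and 54.6 CPM in F4/80high and 289, 361 and 41.8 CPM in F4/80low, with *Ighm* at 125 CPM on average. Both sums were lowest in replicate 3, as was *Ccr7*. Fibroblast markers had 5 of 10 higher in F4/80low in 3 of 3 pairs (4 with library size alone), with *Col1a2* at 586 CPM. Those of endothelial cells (*Pecam1*, 41.9 CPM), melanoma cells (*Mitf*, 55.6 CPM) and keratinocytes (*Sfn*, 6.17 CPM) had 1, 0 and 0 genes higher in F4/80low in 3 of 3 pairs. With library size alone these lists had 0, 0 and 0 genes higher in F4/80low and 1, 1 and 0 higher in F4/80high in 3 of 3 pairs. The study's methods name a lineage-negative gate, which the sample labels do not mention, and its markers are not given for the sort. The flow cytometry panel holds antibodies to B220, CD3e, NK1.1 and Ly6G, surface markers of B cells, T cells, NK cells and neutrophils. The part of these other cells in the levels of the 9 genes was not tested.

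**Figure D4:**
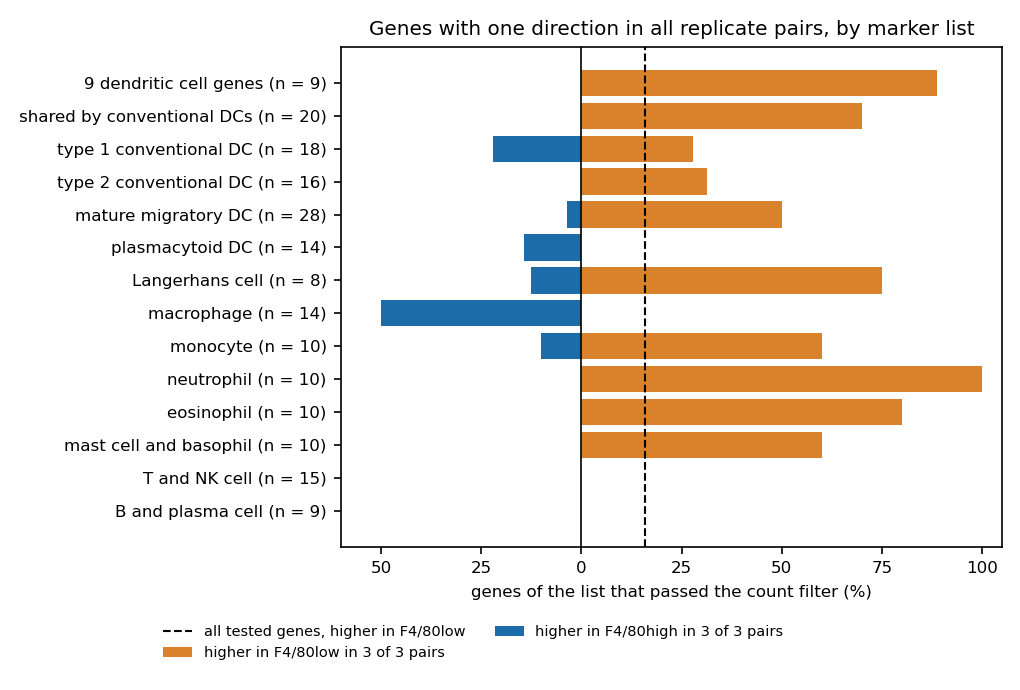
Share of the genes in each marker list (y axis, with n genes that passed the count filter) that were higher in F4/80low (orange, to the right) or in F4/80high (blue, to the left) in 3 of 3 replicate pairs, in percent (x axis), with the share of all tested genes that were higher in F4/80low as a dashed line at 15.9%. The 9 dendritic cell genes and the neutrophil, eosinophil and shared dendritic cell lists lean to F4/80low, the macrophage list leans to F4/80high, and the T and B cell lists have no gene with 1 direction in all pairs.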

How the data were processed

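RNA was extracted from the sorted F4/80high and F4/80low TAMs, poly-A libraries were made, and the authors deposited for each of the 6 libraries a table of raw read counts per gene, with gene length. The aligner, counting rule and strand are not given in the sources used here. Of the gene IDs, 99.4% were found in GENCODE M21 (GRCm38), which supplied biotypes and coordinates. The 9 genes and all marker lists were chosen with earlier results of these data known. Genes named beyond them followed a rule: the partners, *Adgre1*, up to 3 genes with the smallest p per direction of each other dendritic cell list, the most abundant gene of each other list, 5 genes most like *Ccr7* and 5 most like *Flt3*, and genes within 100 kb of *Ccl17* or *Ccl22*. Others, such as *Itgax*, *Csf1r* and *Slfn4*, were named after their values were seen. Of the genes this rule gives, 2 are not reported here.

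Protein-coding genes with at least 10 counts were fitted in edgeR 4.0.16 (R 4.3.3, limma 3.58.1) with TMM factors and the quasi-likelihood test, with batch and subset as terms, as the study corrected for batch. Calls needed a Benjamini-Hochberg adjusted p under 0.05 over all genes and an absolute log2 fold change above 1. Pair differences were taken on log2 CPM (prior count 2), and fold values in pairs are ratios of CPM. Same-numbered libraries deviated together from their subset means (correlations 0.745, 0.729 and 0.907 for replicates 1, 2 and 3 over 10072 genes), and the numbers are those of the 3 experiments, so they pair the libraries. No library was a copy of another. Both edgeR fits and DESeq2 with batch were tested on simulated data. Alternatives were DESeq2 1.42.0, other scaling, filters and terms, and leaving out libraries. The depth makes 3 counts worth 0.0583 to 0.342 normalized CPM.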

Additional observations from a re-analysis of the deposited data

How the results depend on the processing

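None of the 9 genes was called in the fit with batch or under any alternative but those with the replicate block, where edgeR called 1 and DESeq2 called 3. Over all genes the count of calls was 0 in the fit with batch, 76 in edgeR with the replicate block, 148 in DESeq2 with batch and 354 in DESeq2 with the replicate block, 0 to 57 with a library left out, and 315, 35 and 0 without replicate 1, 2 or 3 of both subsets. *Ccl22* was called with the block in both tools (-1.56 in each), and *Flt3* (-1.51) and *Dpp4* (-1.02) in DESeq2 alone. The pairing changed no other call among the 9. The median log2 fold change of the 9 genes ranged from -1.55 to -0.18 with a library or a replicate of both subsets left out, and from -1.03 to -0.83 under the other alternatives. With 1 library left out, *Fscn1* ranged from -1.27 to 0.11, *Xcr1* from -1.26 to 0.028 and *Batf3* from -0.0049 to 0.54 (-0.0021 without replicate 3 of both subsets). The positive values of *Fscn1* and *Xcr1* came without F4/80low replicate 1 and the negative ones of *Batf3* without a replicate 3 library. With replicate 1 left out of both subsets, *Fscn1* was at -0.28 and *Xcr1* at -0.80. The cause of these sign changes was not tested. The other 6 genes had a negative value under all 18 alternatives, but its size moved. *Ccl22* ranged from -2.57 to -0.54, *Ccl17* from -1.80 to -0.10, *Ccr7* from -1.39 to -0.18 and *Dpp4* from -1.55 to -0.51. For these genes the lowest value came without F4/80high replicate 1 and the highest without F4/80low replicate 1. *Flt3* ranged from -2.17 to -1.14 and *Zbtb46* from -1.99 to -0.80. The median distance between profiles was 0.84, 0.41 with batch means removed and 0.39 without replicate 3. Of the 9 genes, *Ccl17* is limited most by depth, with 5 counts in each replicate 3 library.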
